A study of Mus musculus with 9 samples.

Results

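Polyadenylated RNA of the HD-homo striatal line was compared with that of the control striatal line, outside the interferon-stimulated and chemokine genes. The comparison was chosen by library label and not by any measured value, and it takes 6 of the 9 libraries of the series, 3 of each line. Of the 36410 genes in the count table, 13508 passed the filter on low counts and were tested. Control cells were STHdhQ7/Q7, with 7 glutamines encoded by both Hdh alleles, and HD-homo cells were STHdhQ111/Q111, with 111 glutamines encoded by both. The libraries of the heterozygous line HD-het (STHdhQ7/Q111) entered the fit only to add to the estimate of the spread. All of these are immortalized striatal neuronal lines derived from mouse embryos, and the labels give the strain C57/BL6 for every library. Each genotype was a single line, so the genotype and the line cannot be told apart. Nothing in the labels says that the 3 libraries of a line came from separate cultures, and the p-values therefore measure only the spread between these libraries.

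Huntington disease is caused by an expanded CAG repeat in the huntingtin gene, which lengthens a polyglutamine stretch in the protein. The striatum, and above all its GABAergic medium spiny projection neurons, is the brain region hit hardest. The STHdh lines are dividing precursor cells immortalized with a temperature-sensitive large T antigen, and they are widely used as a cell model of the disease although they are not mature neurons.

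The 9 libraries held between 29507665 and 41197931 counts each, and the normalization factors lay between 0.984 and 1.025. With 3 counts taken as the floor, a gene had to reach between 0.071 and 0.101 CPM (counts per 1000000 counts of a library) to be above it, and these limits cover counting error only. The first principal component of the tested genes, with 63.4% of the variance, set HD-homo apart from both other lines. Replicates of the control line were closer to each other than those of the HD-homo line: the mean chi-square per gene, which is near 1 when libraries differ by counting noise alone, lay between 2.3 and 12.6 among control libraries and between 24.4 and 42.9 among HD-homo libraries. Control replicate 3 stood apart from the other control libraries and held less of several abundant matrix transcripts, which is given below where it touches a result. Levels are given as normalized CPM in replicates 1, 2 and 3 in that order, with no correction for gene length. The level of a gene is therefore compared between libraries and not with that of another gene. Rankings by change in CPM and sums over lists give more weight to long and abundant transcripts.

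Htt, the mouse huntingtin gene (chr5:34761721-34912534 in GRCm38), was lower in HD-homo. It was at 104, 103 and 93.0 CPM in the control libraries and at 19.7, 21.7 and 19.2 CPM in the HD-homo libraries. The lines did not overlap, and the mean fell from 100 ± 6.0 to 20.2 ± 1.29 CPM (SD, n = 3), a 4.95-fold lower level with a log2 fold change of -2.31 (SE 0.0694, adjusted p = 3.4e-10 by edgeR's quasi-likelihood test). Of the 107 tested genes within 5 Mb of Htt, 49 were higher in HD-homo, 13 were lower, and their median log2 fold change was 0.13; on chromosome 5 as a whole 37.0% of tested genes were higher and 19.6% lower, and of all tested genes 29.6% were higher and 28.9% lower. Since the polyglutamine repeat itself was not read out from the counts, Htt checks the level of the transcript and not the allele.

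The labelled cell type was compared with marker genes. Several defining markers of mature medium spiny neurons were at or near the floor in both lines. Drd1 and Drd2 (dopamine receptors), Pdyn (prodynorphin), Isl1 (a striatonigral transcription factor) and Slc32a1 (the vesicular GABA transporter) had no count in any of the 6 libraries, and Ppp1r1b (DARPP-32) was at 0.073 CPM in control and 0.326 CPM in HD-homo on average. Foxp1, a transcription factor of striatal neurons, was well detected. The pan-neuronal synaptic genes Snap25 and Syt1 had no count in control and at most 1 count in an HD-homo library, whereas Tubb3 (neuronal beta-tubulin) and Map2 (a dendritic microtubule protein) were present at similar levels in both lines, with log2 fold changes of -0.17 and -0.08 that did not pass the test. The markers of mature medium spiny neurons named first were thus absent or near the floor in both lines. Penk (proenkephalin), another marker of these neurons, was above it at 1.28 CPM in control and 2.42 CPM in HD-homo. Markers of neural precursors are given below. Transcripts of the Y-linked genes Ddx3y, Eif2s3y, Uty and Kdm5d were found in both lines, and Xist had no count in any library. All 4 of these Y-linked genes were called lower in HD-homo, Uty the most at 2.38 CPM in control and 1.15 CPM in HD-homo. The calls of Ddx3y and Kdm5d were lost when single libraries were left out. Of 7 tested genes placed on chromosome Y, 5 were lower and 0 higher.

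At an adjusted p under 0.05, 58.6% of all tested genes differed between the lines, 29.6% being higher and 28.9% lower in HD-homo, and 65.3% had no overlap between the libraries of the lines. The median log2 fold change over all tested genes was 0.0077, so the scaling left the lines centred on each other. Genes that also changed by 1 or more on the log2 scale made up 10.1% of the table on the higher and 8.94% on the lower side. These shares are the background against which each gene group below is read: a group in which close to 30% of members were higher and close to 29% lower looks like the table as a whole. Fewer cells of a type and less RNA per cell cannot be told apart in such bulk libraries.

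**Figure D1:**
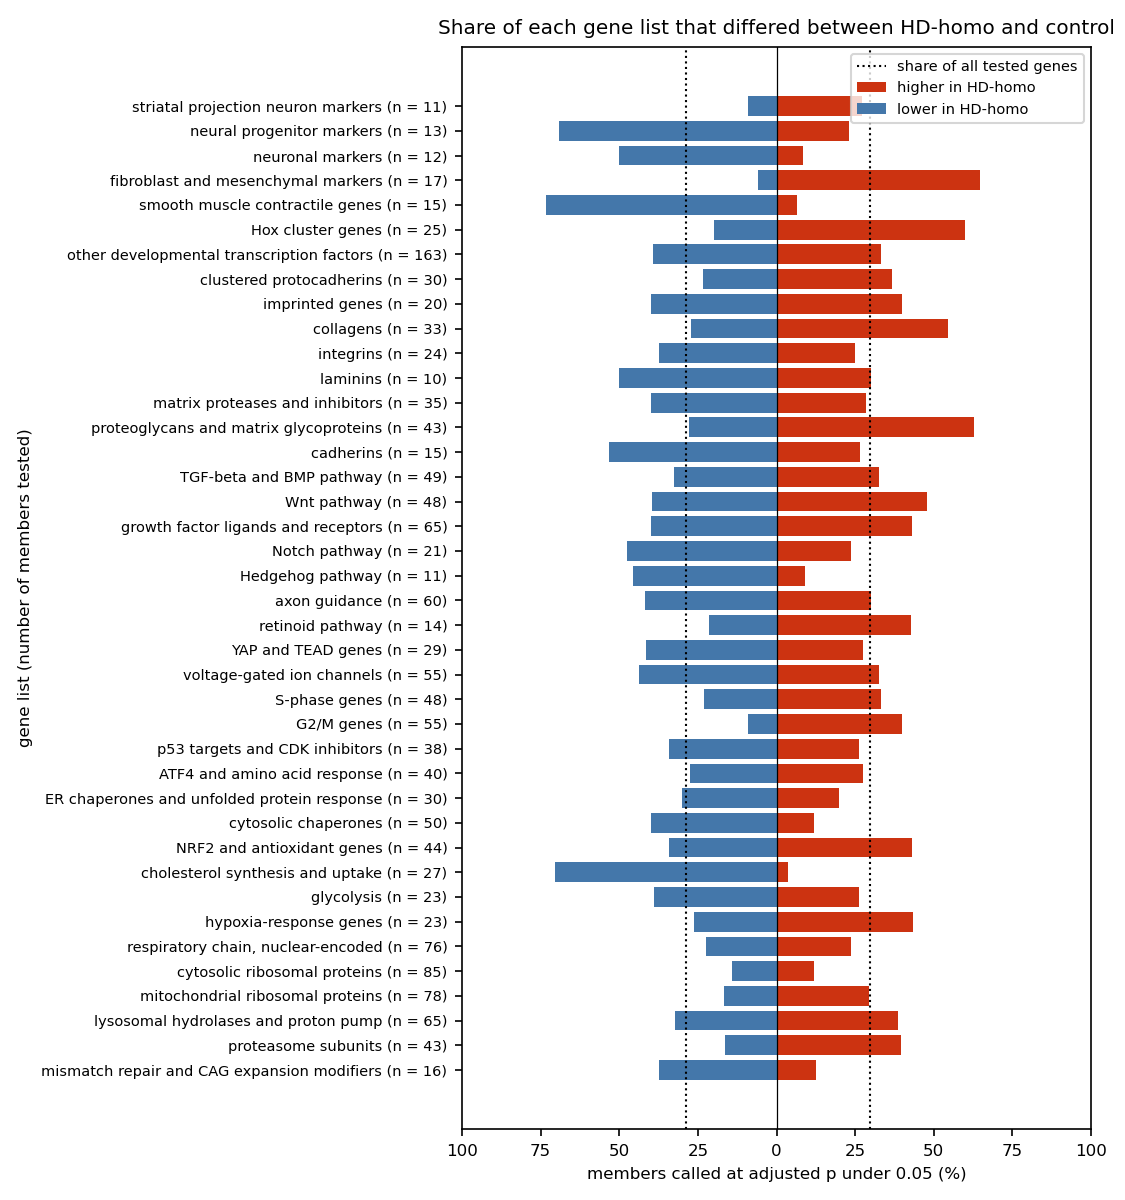
Horizontal bars give, for 40 gene lists, the percentage of tested members called at an adjusted p under 0.05, with members lower in HD-homo to the left (blue) and members higher to the right (red); n is the number of members tested, and the dotted lines are the shares of all tested genes, 28.9% lower and 29.6% higher. Smooth muscle contractile genes, cholesterol genes and neural progenitor markers reach past 69% on the lower side, fibroblast markers, proteoglycans and Hox genes past 59% on the higher side, and ribosomal proteins fall short of both dotted lines.

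The largest changes were between presence and absence of a transcript. Among called genes that averaged 10 CPM or more in either line and whose libraries did not overlap, 2661 were higher and 2786 lower in HD-homo, the interferon and chemokine list left aside. Of the 12 with the largest increases, 10 were at or under the floor in control, and this was so in HD-homo for 9 of the 12 with the largest decreases. Where the lower line had no count, the fold is a lower bound against 3 counts per library. Where it had a few counts, the ratio of the summed counts is given with its exact 95% interval, which covers counting error only.

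The genes that appeared in HD-homo belong to several families. Scn3a, a voltage-gated sodium channel of embryonic neurons (chr2:65457118-65567591), had 0, 1 and 0 counts in control and reached 56.8, 88.9 and 91.8 CPM in HD-homo. The ratio was 7640 (interval 1370 to 302000), set by a single control count. Thbd, thrombomodulin, an anticoagulant receptor of vessel walls (chr2:148404471-148408188), had 1, 2 and 2 counts in control against 258, 292 and 369 CPM in HD-homo. All HD-homo libraries were high, with a ratio of 5830 (interval 2500 to 18000). Wnt10b, a Wnt ligand, was at 36.2, 48.3 and 30.2 CPM in HD-homo against 0, 1 and 0 counts in control.

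Other genes of this group were less even among the HD-homo libraries. Selp, P-selectin, an adhesion receptor of activated endothelium and platelets, was at 37.1, 58.6 and 144 CPM, and Ppbp, a platelet chemokine that the list set aside did not hold, at 234, 236 and 513 CPM. In both, replicate 3 of HD-homo was the highest library, and every HD-homo library was above every control library. Ltbr, the lymphotoxin beta receptor, was even at 96.6, 89.0 and 99.8 CPM, with at most 2 counts in a control library. Aebp1, a secreted matrix-associated protein, was at 0.715, 0.565 and 0.338 CPM in control and 755, 654 and 904 CPM in HD-homo, a 1430-fold difference (log2 fold change 10.46, SE 0.221, adjusted p = 1.8e-11 by edgeR). Lama4, a laminin chain of vessel basement membranes, Mpg, a DNA glycosylase that removes alkylated bases, and Slc43a3, a purine base transporter, were higher with ratios of 1400 (interval 478 to 6790), 1290 (358 to 10700) and 1140 (525 to 3120). The uncharacterized gene 3830403N18Rik had no count in control and was at least 125-fold higher.

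The genes with the largest decreases also came from several families. B3gnt5, a glycosyltransferase of lacto-series glycolipids, was at 19.6, 23.0 and 16.8 CPM in control and had no count in HD-homo, at least 235-fold lower. Cbln1, a synapse organizer, had no count in HD-homo either and was at least 143-fold lower. Kcnip1, a potassium channel subunit, was at 67.8, 64.0 and 69.3 CPM in control and had 1 count in each HD-homo library. The control level was 2420 times that in HD-homo (interval 827 to 11700). Tenm3, a teneurin that guides neural wiring (chr8:48225665-49522824), was at 159, 153 and 159 CPM in control and 0.092, 0.142 and 0.179 CPM in HD-homo, 1140-fold lower. Crabp1, a cellular retinoic acid binding protein, was at 177, 173 and 191 CPM in control and 0.368, 0.308 and 0.298 CPM in HD-homo, 556-fold lower. The libraries within each line lay close together for both genes. Megf10 (an engulfment receptor of glia), Tmem47 (a junction protein), Galnt17 (a glycosyltransferase) and Ptprb (a receptor phosphatase) were lower, with 6, 4, 1 and 4 counts in all in HD-homo and ratios whose intervals were 614 to 3650, 370 to 3490, 322 to 71100 and 234 to 2210. Gpr149, an orphan receptor, was at 19.3, 19.2 and 31.8 CPM in control and had 0, 4 and 0 counts in HD-homo.

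**Figure D2:**
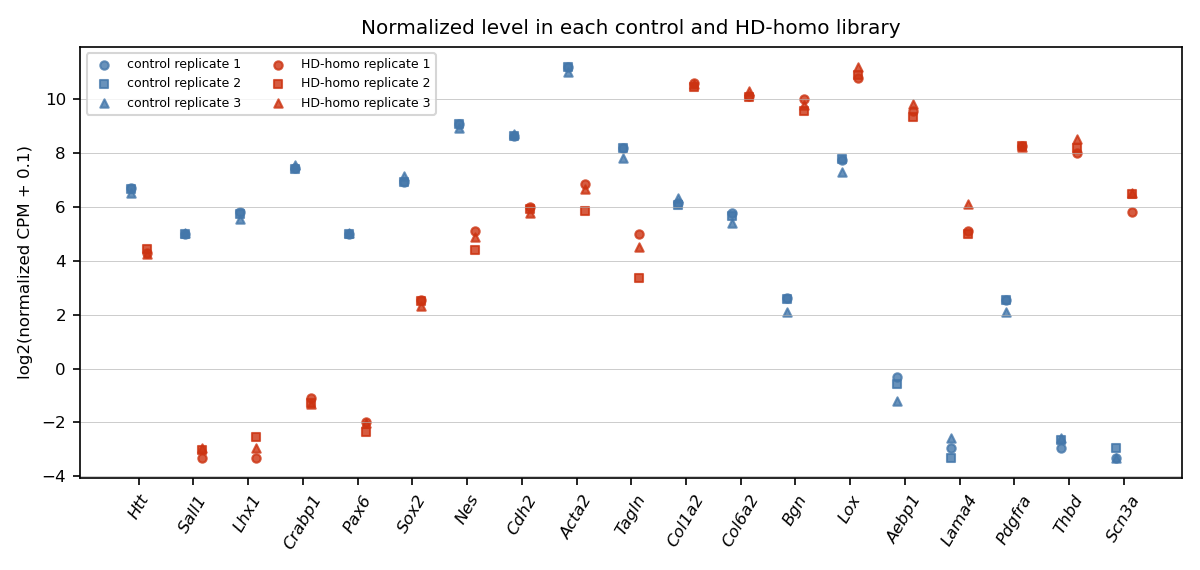
Normalized level of 19 genes on the log2 scale, log2(CPM + 0.1), in each of the 3 control (blue) and 3 HD-homo (red) libraries, with circles, squares and triangles for replicates 1, 2 and 3. The lines do not overlap for any of these genes; the control and HD-homo points are farthest apart for Thbd, from at most 0.0676 CPM in control to at least 258 CPM in HD-homo.

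By the size of the change in CPM, a ranking that favours long and abundant transcripts, the rises and falls were led by matrix and cytoskeletal genes. Lox, lysyl oxidase, which crosslinks collagen, rose from 218, 223 and 157 CPM to 1780, 1900 and 2390 CPM. Col1a1, a chain of type I collagen, rose from 2730, 2630 and 2030 CPM to 4140, 4070 and 4490 CPM. In both genes control replicate 3 was the lowest library, and the lines did not overlap. The log2 fold changes were 3.34 (SE 0.152) and 0.78 (SE 0.116). Il1rl1, the interleukin-33 receptor (787 to 2470 CPM), Col5a2 of type V collagen (558 to 2090 CPM) and Col6a1 of type VI collagen (116 to 1610 CPM) were the other genes of the 5 largest rises. The 5 largest falls were Thbs1, a secreted matricellular protein (4460 to 2160 CPM), Acta2, smooth muscle alpha-actin (2270 to 91.8 CPM), Actg1, a cytoplasmic actin (6370 to 4460 CPM), Flna, an actin crosslinker (3840 to 2290 CPM), and Vim, vimentin (5380 to 4260 CPM).

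Markers of neural progenitors fell. Of 13 tested markers 9 were lower and 3 higher in HD-homo, the median log2 fold change was -1.62, and the list summed to between 1400 and 1410 CPM in the control libraries and between 266 and 285 CPM in the HD-homo libraries. Pax6, a homeobox factor of forebrain progenitors, was at 31.7, 31.7 and 32.8 CPM in control and 0.153, 0.0947 and 0.149 CPM in HD-homo, 242-fold lower. Sox2, which maintains neural stem cells, was at 122, 122 and 141 CPM in control and 5.79, 5.66 and 4.98 CPM in HD-homo, 23.4-fold lower. Neither gene overlapped between the lines. Nes, nestin, the progenitor intermediate filament, fell from 526 ± 34.6 to 28.4 ± 6.52 CPM (SD, n = 3), and Cdh2, N-cadherin, fell from 406 ± 8.19 to 59.9 ± 5.04 CPM. Dlx1 and Dlx2, homeobox factors of the ventral forebrain that gives rise to the striatum, went the other way: Dlx2 was at 16.7, 15.5 and 16.4 CPM in control and at 21.6, 35.1 and 38.7 CPM in HD-homo, and Dlx1 rose from 10.4 to 16.1 CPM. Fabp7, a radial glia protein, was higher too, but its call was lost without control replicate 3, with an adjusted p of 0.055 in edgeR.

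Neuronal markers moved less evenly. Of 12 tested, 6 were lower, 1 was higher, and the median was -0.85. That median lay between -0.59 and -0.25 when any 1 library was left out and was -0.15 with no filter on low counts. Stmn2, a regulator of microtubules in growing axons, was at 57.6, 57.5 and 46.1 CPM in control and 3.04, 3.13 and 2.09 CPM in HD-homo, 19.5-fold lower. Nefm, a neurofilament subunit, fell from 3.12 to 0.125 CPM. Ncam1, the neural cell adhesion molecule, was 2.79-fold lower, and Stx1a, a syntaxin of the release machinery, was the member called higher, with a log2 fold change of 0.44. Among 11 tested striatal markers, the share called was 36.4%, under the background: Foxp1 rose from 93.8 ± 5.14 to 168 ± 10.3 CPM, Meis2, a homeobox factor of the striatal anlage, fell from 49.2 ± 3.4 to 21.4 ± 2.8 CPM, and Penk, proenkephalin, rose from 1.28 to 2.42 CPM with a call that was lost when HD-homo replicate 3, control replicate 1 or control replicate 2 was left out. Bcl11b (CTIP2) was near the floor in both lines.

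Genes tied to Huntington disease by earlier work were also read out, chosen for that role. Bdnf, the neurotrophin that supports striatal neurons, was at 62.2, 67.3 and 61.4 CPM in control and 103, 143 and 125 CPM in HD-homo, and was 1.94-fold higher without overlap (log2 fold change 0.96, SE 0.104, adjusted p = 1.3e-05 by edgeR). Rest, the repressor of neuronal genes that wild-type huntingtin holds in the cytoplasm, overlapped between the lines, at 50.6, 44.8 and 42.3 CPM in control and 49.5, 69.9 and 50.9 CPM in HD-homo, and its adjusted p was 0.058, which passed the threshold in 6 of the alternatives. Ppargc1a, the coactivator of mitochondrial biogenesis, did not pass the test either, with a log2 fold change of -0.16 and an adjusted p of 0.46. Leaving out HD-homo replicate 3 brought it to -0.44 with an adjusted p of 0.01. Hap1, huntingtin-associated protein 1, was lower, from 8.88 ± 1.07 to 4.87 ± 0.5 CPM. Among 16 genes of mismatch repair and other modifiers of repeat expansion, 6 were lower and 2 higher. Msh6, a mismatch recognition subunit, was at 139, 133 and 149 CPM in control and 69.0, 64.0 and 83.4 CPM in HD-homo, without overlap. Msh3 and Fan1, both known as modifiers of the age at onset, did not pass the test, with 0.13 and -0.10. Pms2, another mismatch repair gene, was called higher at 0.20, a call that was lost without single libraries.

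Developmental transcription factors split into gains and losses. In a list of 163 tested members taken from families by symbol, 54 were higher, 64 lower, and the median was 0.03, but the changes were large: 29 were higher and 47 lower by at least 1 on the log2 scale. The lowest were Sall1, a zinc finger factor, Lhx1, a LIM homeobox factor, Pou3f3, a neural POU factor, Tbx20, a T-box factor, Sall3 and Pax6. Sall1 was at 31.6, 32.0 and 32.6 CPM in control and had 0, 1 and 1 counts in HD-homo. Lhx1 was at 56.6, 53.1 and 47.3 CPM in control and had 0, 3 and 1 counts in HD-homo. Tbx20 was at 38.5, 39.6 and 39.5 CPM in control and 0.0613, 0.118 and 0.0596 CPM in HD-homo, 491-fold lower. For each of these genes the control libraries agreed closely while HD-homo was at or near the floor. The highest were Tcfl5, Ebf3, Runx1t1, Irx2, Zic4 and Zic1, with log2 fold changes of 9.03, 7.19, 5.94, 5.88, 5.66 and 5.30. Zic1, a zinc finger factor of the dorsal neural tube and forebrain, was at 0.871, 0.505 and 0.642 CPM in control and 25.8, 25.8 and 28.2 CPM in HD-homo.

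Hox genes, which set position along the body axis and are not part of the normal forebrain programme, were detected in both lines. Of 25 tested, 15 were higher in HD-homo and 5 lower, with a median of 0.65 that was 0.36 with no filter on low counts. The members called higher included the anterior HoxA genes: Hoxa2, Hoxa3 and Hoxa4 had log2 fold changes of 6.28, 3.52 and 3.20. Hoxa3 was at 0.436, 0.357 and 0.507 CPM in control and 4.14, 5.68 and 5.10 CPM in HD-homo. Hoxb9 was at 60.6 CPM in control and 84.6 CPM in HD-homo on average, and Hoxb4 rose from 5.21 to 8.81 CPM. The lower members included Hoxb13, from 1.42 to 0.191 CPM, Hoxc8, from 0.926 to 0.104 CPM, and Hoxb8, from 22.0 to 12.1 CPM. Hoxc13 went against Hoxc8 of the same cluster and rose from 0.262 to 4.05 CPM.

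The clustered protocadherins, whose stochastic choice gives neurons their surface identity, had 11 members higher and 7 lower of 30 tested, the latter 4 under a filter of 10 counts in every library of a line. The extremes were Pcdhb17, at 1.18 CPM in control and 7.90 CPM in HD-homo, and Pcdhgb2, at 11.9, 12.1 and 8.86 CPM in control and 0.092, 0.284 and 0.239 CPM in HD-homo. These genes share similar exons, and reads may be split between them. Of 20 tested imprinted genes, 8 were higher and 8 lower. Mest was at 3.95, 3.30 and 4.36 CPM in control and 45.3, 53.8 and 36.9 CPM in HD-homo, and Grb10, an adaptor that restrains insulin signalling, rose from 329 ± 20.9 to 900 ± 48.1 CPM. Nnat (neuronatin) and Ndn (necdin) fell, Ndn from 29.7 to 4.68 CPM, and Impact fell from 114 ± 0.683 to 39.4 ± 7.19 CPM. The shares of imprinted genes called were 40.0% higher and 40.0% lower, beside 29.6% and 28.9% of all tested genes. The imprinted genes named had no overlap between the lines, as 65.3% of all tested genes had none. They were picked by rank or with their values known.

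Collagens were more often higher than lower. They form the fibres and networks outside cells, and of 33 tested chains 18 were higher, 9 lower, and the median was 0.78. Summed, they took between 5840 and 7570 CPM in control libraries and between 13700 and 14800 CPM in HD-homo libraries. Col1a2 was at 71.9, 68.1 and 80.2 CPM in control and 1560, 1410 and 1520 CPM in HD-homo, 20.4-fold higher, whereas its partner chain Col1a1 was 1.72-fold higher. Col6a2 rose with Col6a1, from 55.1, 50.9 and 43.0 CPM to 1110, 1090 and 1260 CPM. The libraries of both lines were tight for these chains. Col28a1 and Col10a1 appeared, from at most 3 counts in a control library to 4.40 and 2.18 CPM in HD-homo. Col3a1 overlapped between the lines, at 561, 541 and 370 CPM in control and 585, 555 and 514 CPM in HD-homo. The chains that fell were basement membrane collagens among others: Col4a4 was at 8.87, 7.85 and 5.51 CPM in control and 0.0307, 0.0947 and 0 CPM in HD-homo, Col4a3 was 77.3-fold lower (interval 29.8 to 286), Col4a1 fell from 589 to 380 CPM, and Col18a1 was 6.28-fold lower.

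Of 43 tested proteoglycans and matrix glycoproteins, 27 were higher and 12 lower, with a median of 0.54. Bgn, biglycan, a small leucine-rich proteoglycan, was at 6.10, 5.92 and 4.16 CPM in control and 1040, 757 and 897 CPM in HD-homo, 167-fold higher. Fbln1, fibulin 1, rose from 0.064 to 46.5 CPM, Aspn, asporin, from 0.164 to 90.8 CPM, and Fbn2, fibrillin 2, from 0.535 to 74.2 CPM. Fibronectin (Fn1) was 1.34-fold higher. In the other direction, Spp1, osteopontin, was at 413, 408 and 304 CPM in control and 61.1, 42.0 and 57.3 CPM in HD-homo, and Tnc, tenascin C, a matrix protein of neural progenitor niches, fell from 1400 ± 107 to 316 ± 75.4 CPM. Matrix proteases and their inhibitors changed both ways, 10 higher and 14 lower of 35 tested: Mmp2, a gelatinase, was 9.95-fold and Adamts14 11.5-fold higher, Adamts9 had no count in HD-homo and was at least 117-fold lower, and Adamtsl3 fell from 138 to 3.07 CPM.

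Fibroblast markers were mostly higher and contractile genes mostly lower. Of 17 tested fibroblast and mesenchymal markers, 11 were higher and 1 lower, with a median of 0.63. Pdgfra, the PDGF receptor alpha, was at 5.72, 5.71 and 4.19 CPM in control and 311, 308 and 301 CPM in HD-homo, 58.9-fold higher. The marker called lower was Vim, and Fap and Thy1 were at or near 0 in both lines. Of 15 tested smooth muscle contractile genes, 11 were lower and 1 higher, with a median of -0.65. Acta2 was at 2380, 2370 and 2060 CPM in control and 116, 57.7 and 102 CPM in HD-homo, 24.7-fold lower (log2 fold change -4.63, SE 0.224, adjusted p = 1.5e-08 by edgeR). Tagln, transgelin, was at 292, 297 and 227 CPM in control and 31.8, 10.3 and 22.6 CPM in HD-homo. HD-homo replicate 2 was the lowest library for both. Myl9, a myosin light chain, was 4.25-fold lower, while Myh11, the smooth muscle myosin heavy chain, had similar means of 28.5 and 29.9 CPM and did not pass the test. Des, desmin, the member called higher, lost its call when HD-homo replicate 3 or control replicate 1 was left out. Myocd, the cardiac and smooth muscle coactivator, fell from 0.403 to 0.0842 CPM.

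**Figure D3:**
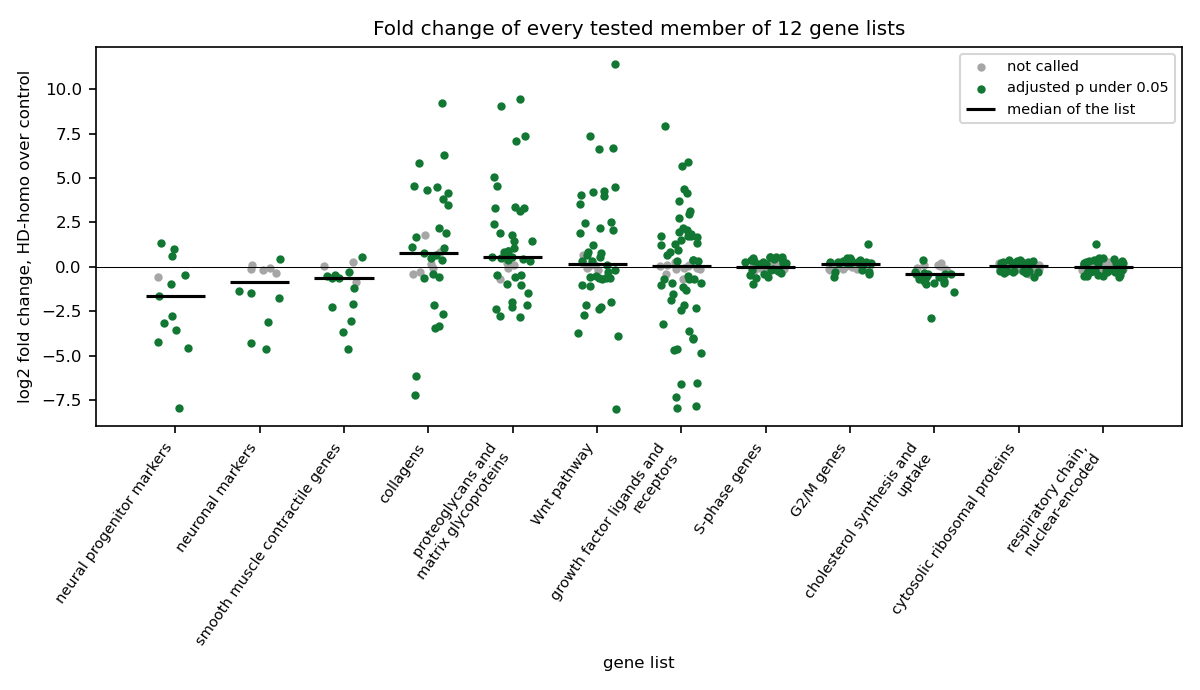
Each point is the log2 fold change (HD-homo over control) of a tested member of 12 gene lists, green where the adjusted p was under 0.05 and grey otherwise, with a black bar at the list's median. Collagens, matrix glycoproteins, Wnt genes and growth factors spread over many log2 units in both directions, neural progenitor markers sit mostly below 0 with a median of -1.62, and cell cycle, ribosomal and respiratory chain genes stay close to 0.

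Adhesion receptors changed by subunit. Of 24 tested integrins, 6 were higher and 9 lower. Itga2, a collagen receptor subunit, was at 0.124, 0.0297 and 0.0676 CPM in control and 19.8, 6.80 and 24.3 CPM in HD-homo, and Itgb7 rose 30.4-fold. Itga7, a laminin receptor subunit, was at 115, 114 and 109 CPM in control and 1.96, 2.84 and 2.59 CPM in HD-homo, 45.7-fold lower, and Itga3, another laminin receptor subunit, fell from 364 to 65.2 CPM. Among 10 tested laminin chains, 3 were higher and 5 lower. Lama4, Lamb3 and Lamb2 were the higher ones, with log2 fold changes of 10.32, 2.92 and 1.18. Lama2 and Lama5 fell, Lama5 from 266, 245 and 222 CPM to 75, 55.2 and 55 CPM, Lamb1 fell from 470 to 218 CPM, and Lamc1, with -0.24, lost its call when single libraries were left out. Lama3 and Lamc3 did not pass the test. Of 15 tested cadherins, 8 were lower and 4 higher, with a median of -0.49 that turned to 0.08 when the filter on low counts was dropped. Beside the fall of Cdh2, Cdh6 rose from 4.29 ± 0.583 to 46.1 ± 14.1 CPM, Cdh3 rose from 0.389 to 2.02 CPM, and Cdh22 and Cdh26 fell to at most 2 counts in any HD-homo library.

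Markers of other cell types were counted over whole lists. Endothelial markers held 4 higher and 1 lower of 7 tested, summing to between 155 and 160 CPM in control and between 320 and 533 CPM in HD-homo. Thbd and Selp made up most of the rise, Flt1, a VEGF receptor, fell from 151 ± 3.08 to 12.4 ± 2.99 CPM, and the defining markers Cldn5, Tie1, Emcn and Sox17 had no count in any of the 6 libraries, with Pecam1 near the floor. Astrocyte markers were higher in 4 of 5 tested: Slc1a3, a glutamate transporter, was 6.51-fold and Sox9 3.81-fold higher, Slc1a2 reached 0.685 CPM, and Gja1, connexin 43, rose from 356 to 415 CPM. The calls of Slc1a2 and Gja1 were lost without HD-homo replicate 2 among others. Aqp4 had no count, and Gfap, S100b, Aldh1l1 and Gjb6 were near or under the floor. Oligodendrocyte lineage markers were higher in 4 of 6 tested, Cspg4 (NG2) from 76.8 to 159 CPM, Myrf from 0.174 to 2.45 CPM, Mbp from 0.115 to 1.23 CPM and Sox10 from 0.0942 to 0.477 CPM, while Olig1 and Mog had no count. Microglial and leukocyte markers held 1 higher (Csf1r, 0.544 to 2.04 CPM) and 1 lower (P2ry12, 0.438 to 0.0418 CPM) of 4 tested, and Aif1, C1qa and Cd3e had no count. Epithelial markers were all called, 3 higher and 4 lower of 7: Krt19 fell from 12.8 to 4.58 CPM, Krt8 and Cdh1 fell, Krt18 rose to 1.02 CPM, and Esrp2, an epithelial splicing regulator, rose from 0.0311 to 2.80 CPM. In each of these lists some defining markers were at or near 0 in both lines.

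Signalling genes changed by member more than by pathway. Wnt signals set cell fate and growth through beta-catenin, and of 48 tested genes of the pathway 23 were higher and 19 lower. Among the ligands, Wnt10a was at 1.03, 1.04 and 0.98 CPM in control and 123, 91.9 and 92.8 CPM in HD-homo, 101-fold higher, and Wnt10b and Wnt6 appeared, whereas Wnt4 fell from 5.39 to 0.36 CPM. The secreted inhibitor Dkk2 was at 16.1, 16 and 20.2 CPM in control and 269-fold lower in HD-homo (interval 130 to 670). Axin2, a feedback target of the pathway, was at 0.591, 0.416 and 0.541 CPM in control and 2.12, 1.42 and 3.58 CPM in HD-homo. Wnt10a and Axin2 were higher in every HD-homo library. Ctnnb1, beta-catenin, was 1.09-fold higher, a call lost in 9 of the alternatives.

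In the TGF-beta and BMP pathway, which drives matrix production and patterning, 16 of 49 tested genes were higher and 16 lower. That is 32.7% each way, close to the 29.6% higher and 28.9% lower of all tested genes. The ligand Tgfb1 and the effector Smad3 did not pass the test, with log2 fold changes of 0.02 and 0.11. Tgfbi, a secreted target, was at 3.30, 3.12 and 3.08 CPM in control and 112, 117 and 128 CPM in HD-homo, 37.5-fold higher, and the latent binding protein Ltbp2 was 45.9-fold higher, with HD-homo libraries at 33.7, 15.8 and 53.9 CPM. Bmp7 appeared in HD-homo at 6.74, 2.77 and 10.8 CPM. The pseudoreceptor Bambi and the activin subunit Inhbb were 43.3-fold and 37.1-fold lower.

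Of 65 tested growth factor ligands and receptors, 28 were higher and 26 lower, and 21 and 20 of them by at least 1 on the log2 scale. Fgf7, a fibroblast-derived epithelial mitogen, was at 11.7, 11.6 and 9.23 CPM in control and 214, 286 and 179 CPM in HD-homo. Ereg, the EGF receptor ligand epiregulin, rose from 55.3 ± 7.37 to 492 ± 67.2 CPM. Both were higher in every HD-homo library. Ntrk3, the neurotrophin-3 receptor, appeared at 3.50 CPM. Igfbp5, an IGF binding protein, was at 25.4, 25.4 and 21.9 CPM in control and 0.184, 0.0237 and 0.119 CPM in HD-homo, Igf1 was 25.5-fold lower, Pdgfb fell from 106 ± 16 to 4.12 ± 1.79 CPM, and Pdgfd was 191-fold lower (interval 52.4 to 1580). Pdgfb and Pdgfd were lower in HD-homo, while the receptor gene Pdgfra was higher. A link between these changes was not tested.

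Notch and Hedgehog genes, both regulators of neural progenitors, had more lower than higher members. In the Notch pathway 10 of 21 tested were lower and 5 higher, or 47.6% and 23.8%, beside 28.9% and 29.6% of all tested genes. The HD-homo library medians of this list were -0.21, 0.03 and -0.25 from the control mean, so that replicate 2 did not share the shift. The ligand Jag1 was at 128, 125 and 99.9 CPM in control and 9.57, 12.8 and 21.7 CPM in HD-homo, the feedback regulator Nrarp was 70.8-fold lower, and Notch1 had a log2 fold change of -0.82. Notch4 and the target Heyl rose, Notch4 from 0.644 to 6.66 CPM. Hes1, the main effector in progenitors, had a log2 fold change of -0.56 that did not pass the test and became -1.08, with an adjusted p of 0.0045 in edgeR, when HD-homo replicate 2 was left out. In the Hedgehog pathway 5 of 11 tested were lower and 1 higher, or 45.5% and 9.09%. The share called in either direction was 54.5%, under the 58.6% of all tested genes. Gli2, a transcriptional effector, was at 17.1, 17.3 and 15.8 CPM in control and 1.56, 1.18 and 1.13 CPM in HD-homo, and the inhibitor Hhip was 73.5-fold lower (interval 24.8 to 359). The receptor Ptch1 and the transducer Smo did not pass the test, at -0.01 and 0.15, although Smo passed it in 4 alternatives, and Gas1, a coreceptor, rose from 39.3 to 101 CPM.

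Axon guidance cues and receptors numbered 60 tested, 18 higher and 25 lower. Unc5c, a netrin receptor, was at 0.218, 0.0892 and 0.0676 CPM in control and 27.4, 27.9 and 42.3 CPM in HD-homo, and Robo1, a Slit receptor, appeared at 4.61 CPM. The netrin receptor Unc5b went the other way, from 344, 331 and 300 CPM to 36.4, 27.4 and 79.9 CPM, and Sema5b fell from 9.79 to 0.0821 CPM. Of 14 tested retinoid genes, 6 were higher and 3 lower. The carrier Rbp4 and the reductase Dhrs3 reached 1.38 and 1.07 CPM in HD-homo, while the binding protein Crabp1 and the uptake receptor Stra6 fell. YAP and TEAD genes held 8 higher and 12 lower of 29 tested. Yap1 did not pass the test at -0.07, its paralog Wwtr1 (TAZ) was lower at 226 ± 4.93 against 152 ± 0.254 CPM, and the known targets Nt5e and Igfbp3 were 15.6-fold and 3.30-fold higher while Fjx1 and Crim1 fell. Among 55 tested voltage-gated and related ion channels, 18 were higher and 24 lower, with a median of -0.43 that was -0.27 in a fit of the 6 libraries alone and -0.13 with no filter on low counts. Beside Scn3a, the background potassium channel Kcnk5 had no count in control and 7.82, 8.05 and 9.22 CPM in HD-homo, and Kcnf1 fell from 18.2 ± 0.258 to 0.234 ± 0.0406 CPM.

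Cell cycle genes moved by small amounts. Of 55 tested mitosis (G2/M) genes, 22 were higher and 5 lower, with a median of 0.14 (0.09 without HD-homo replicate 2), and 1 of them, Ccnb2, changed by at least 1 on the log2 scale. Cyclin B2 (Ccnb2) was at 37.2, 36.5 and 39.1 CPM in control and 97.7, 106 and 75.5 CPM in HD-homo. Mki67, the Ki-67 proliferation antigen, was at 267, 305 and 249 CPM in control and 375, 453 and 328 CPM in HD-homo, and Ect2 and Anln, which act in cytokinesis, fell 1.49-fold and 1.32-fold. The HD-homo library medians of this list were 0.19, 0.26 and 0.00 above the control mean, so that replicate 3 did not share the shift, and the number of higher members fell to 14 without HD-homo replicate 2 and to 12 without control replicate 3. Of 48 tested DNA replication and S-phase genes, 16 were higher and 11 lower, with a median of -0.03 and none changed by 1 or more. The lower count was 6 without control replicate 3. Pola1 and Clspn were both 1.47-fold higher, and Uhrf1 was 1.53-fold lower.

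Ccnd1, cyclin D1, which carries growth signals to the cell cycle, was at 699, 685 and 833 CPM in control and 304, 210 and 277 CPM in HD-homo, 2.80-fold lower (log2 fold change -1.49, SE 0.121, adjusted p = 1.2e-06 by edgeR). Among 38 p53 targets and CDK inhibitors, 10 were higher and 13 lower, or 26.3% and 34.2%, beside 29.6% and 28.9% of all tested genes. Cdkn1a (p21) overlapped between the lines, with 76.6, 77.3 and 119 CPM in control and 49.8, 81.5 and 88.7 CPM in HD-homo, and did not pass the test. Gdf15, a stress cytokine, rose from 0.139 ± 0.0582 to 4.59 ± 2.44 CPM, with HD-homo libraries at 2.51, 3.98 and 7.28 CPM. Dram1, a p53 target in autophagy, was 5.13-fold higher and Cdkn2c (p18) 2.22-fold higher, whereas Perp and Bbc3 (PUMA) were 2.69-fold and 2.37-fold lower. Trp53 itself had a log2 fold change of -0.17, a call that was lost in 4 of the 6 fits without a library. 

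Stress response lists held members called in both directions. Of 40 ATF4 and amino acid response genes, 11 were higher and 11 lower, with a median of 0.02. That is 27.5% each way, beside 29.6% higher and 28.9% lower of all tested genes. Pycr1, a proline synthesis enzyme, was 2.40-fold and Trib3 2.09-fold higher, Stc2 and the glutamine transporter Slc1a5 were 3.83-fold and 2.70-fold lower, and Atf4 had a log2 fold change of 0.15 with an adjusted p of 0.051. Of 30 tested ER chaperones and unfolded protein response genes, 6 were higher and 9 lower. Hspa5 (BiP), the main ER chaperone, was at 926, 906 and 912 CPM in control and 1240, 1100 and 1320 CPM in HD-homo, and the sensor Eif2ak3 (PERK) was 1.39-fold higher, while the sensor Atf6 and the cochaperone Dnajb9 were lower. Antioxidant and NRF2 target genes were called often, 19 higher and 15 lower of 44 tested (43.2% and 34.1%), and in both directions. Hmox1, heme oxygenase, was at 69.7, 68.8 and 59.0 CPM in control and 154, 177 and 285 CPM in HD-homo, and Nqo1 was 2.26-fold higher. Nfe2l2 (NRF2) itself did not pass the test at -0.09. Gpx7 appeared at 2.65 CPM, Aldh3a1 was 93.2-fold lower (interval 36.0 to 344), and Osgin1 fell 4.52-fold.

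Cytosolic chaperones, which buffer misfolded polyglutamine proteins in many models, were more often lower than higher. Of 50 tested, 20 were lower and 6 higher (10 higher when scaled by library totals), with a median of -0.11, and the 4 that changed by at least 1 on the log2 scale were all lower. The list summed to between 18400 and 19100 CPM in control libraries and between 15800 and 17000 CPM in HD-homo libraries. The small heat shock proteins led the falls: Hspb1 was at 37.0, 35.1 and 33.8 CPM in control and 8.25, 8.69 and 10.1 CPM in HD-homo, 3.92-fold lower, Hspb6 was 3.53-fold lower, and Cryab, alpha-B crystallin, was at 62.4, 59.1 and 71.4 CPM in control and 15.1, 20.3 and 25.5 CPM in HD-homo. None of the 3 overlapped between the lines. The inducible Hspa1a fell 1.48-fold and the constitutive Hspa8 did not pass the test at -0.10. Dnaja4 and the co-chaperone Bag3 were the highest, 1.65-fold and 1.32-fold up.

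Genes of cholesterol synthesis were lower. Sterol shortage releases SREBP2, which turns on this pathway from mevalonate to cholesterol, and in neural tissue cholesterol is made locally. Of 27 tested members 19 were lower and 1 higher, or 70.4% and 3.70%, beside 28.9% and 29.6% of all genes. The median log2 fold change was -0.42, and without single libraries between 14 and 20 members were lower and between 0 and 3 higher. The HD-homo library medians were -0.41, -0.23 and -0.68 from the control mean, while the control libraries were at -0.03, -0.11 and 0.15, so that HD-homo replicate 3 was the lowest library of its line and control replicate 3 the highest of its own. Fdps, farnesyl diphosphate synthase, was at 98.5, 96.2 and 126 CPM in control and 59.1, 66.8 and 44.8 CPM in HD-homo. Sc5d, sterol C5-desaturase, was at 71.5, 67.9 and 81.4 CPM in control and 39.1, 52.4 and 36.2 CPM in HD-homo. The lines did not overlap for either enzyme. Tm7sf2 and Ebp, sterol reductase and isomerase, and Nsdhl, a sterol dehydrogenase, had log2 fold changes of -1.41, -0.77 and -0.68, and the transcription factor gene Srebf2 had -0.41. Hmgcs1, the synthase of an early step, did not pass the test at 0.23, but did at 0.43 (adjusted p = 0.0057 by edgeR) without HD-homo replicate 3. Sqle, squalene epoxidase, was lower by -0.29, a call lost in 5 of the alternatives.

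The promoters of 4 of these genes are shown. They were chosen because each gene was called lower and its promoter carries a CCAAT box, so the box in these 4 is not a result. NF-Y binds this box beside SREBP2 at many sterol genes, but a part of NF-Y in the lower levels was not tested. Each line gives the 150 bases before the annotated start, from RefSeq on GRCm38.p6, and capitals mark CCAAT on the opposite strand, read as ATTGG here. The regions are chr19:6067851-6068000 on the minus strand for Tm7sf2, chr9:42264301-42264450 on the minus strand for Sc5d, chrX:8193513-8193662 on the minus strand for Ebp and chrX:72918371-72918520 on the plus strand for Nsdhl.
Tm7sf2: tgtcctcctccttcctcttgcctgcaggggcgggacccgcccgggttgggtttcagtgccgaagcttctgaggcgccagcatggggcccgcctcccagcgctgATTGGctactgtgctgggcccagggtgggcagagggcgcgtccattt
Sc5d: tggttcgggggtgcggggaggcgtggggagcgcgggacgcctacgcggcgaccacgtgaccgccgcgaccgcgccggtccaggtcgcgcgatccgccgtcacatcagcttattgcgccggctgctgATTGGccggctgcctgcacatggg
Ebp: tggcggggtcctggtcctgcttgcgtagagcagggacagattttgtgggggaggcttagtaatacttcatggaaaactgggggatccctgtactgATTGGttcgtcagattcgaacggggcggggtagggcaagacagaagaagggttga
Nsdhl: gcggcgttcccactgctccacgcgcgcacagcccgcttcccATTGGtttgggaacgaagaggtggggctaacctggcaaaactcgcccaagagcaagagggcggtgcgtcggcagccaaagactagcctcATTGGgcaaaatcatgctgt

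CCAAT was searched on both strands of the 250 bases before each start. It stood in 17 of the 19 cholesterol genes with a promoter in the reference table (89.5%), in 12 of the 13 of those called lower (92.3%), and in 4242 of 10396 tested genes with a promoter (40.8%). The match describes the sequence and was not tested as a binding site. Members that were not lower hold it as well as those that were.

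Other metabolic and housekeeping lists were less one-sided than the cholesterol genes. Their share called ran from 25.9% for cytosolic ribosomal proteins to 70.8% for lysosomal genes, beside 58.6% of all tested genes. Of 23 tested glycolysis genes, 6 were higher and 9 lower. Pdk1, which shuts pyruvate off from the mitochondria, was at 4.51, 4.46 and 4.77 CPM in control and 42.3, 43.5 and 48.7 CPM in HD-homo, 9.79-fold higher, and Ldhb was 8.09-fold higher, whereas the glucose transporter Slc2a3 was 3.48-fold and the isomerase Gpi1 1.58-fold lower. Of 23 tested hypoxia-response genes, 10 were higher and 6 lower: Adm, adrenomedullin, rose from 0.85 to 15.3 CPM, and Vegfa was at 324, 306 and 265 CPM in control and 570, 717 and 818 CPM in HD-homo, while Ddit4 and Ankrd37 fell. Hif1a was 1.16-fold higher with overlapping libraries and an adjusted p of 0.049 that was lost in most alternatives. Nuclear-encoded subunits of the respiratory chain held 18 higher and 17 lower of 76 tested, with a median of 0.01; Ndufv3, at 7.53 CPM in control and 18.1 CPM in HD-homo, was the member that changed by at least 1 on the log2 scale. Transcripts of the mitochondrial genome were not analysed here.

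Cytosolic ribosomal proteins were called in 25.9% of 85 tested, less than the background, with 10 higher and 12 lower, a median of 0.03 and no change of 1 or more. The count of higher members was 5 without control replicate 1 or control replicate 2, 6 without HD-homo replicate 1, and 16 without HD-homo replicate 2 or control replicate 3. The count of lower members was 4 without HD-homo replicate 2, 5 without control replicate 3 and 7 without control replicate 1. Mitochondrial ribosomal proteins held 23 higher and 13 lower of 78, the former count falling to 11 without control replicate 1 or control replicate 2, to 13 without HD-homo replicate 1 and to 15 without HD-homo replicate 3, and Mrpl36 rose 3.16-fold. Proteasome subunits held 17 higher and 7 lower of 43, with a median of 0.13 that was 0.08 without HD-homo replicate 1; Psme2, a subunit of the 11S activator, was the highest at 2.18-fold and Psma3 the lowest, falling 1.32-fold. Lysosomal enzymes and proton pump subunits held 25 higher and 21 lower of 65, the latter count being 13 without control replicate 3. Ctsh, cathepsin H, was at 0.591, 0.297 and 0.575 CPM in control and 16.9, 16.3 and 20.1 CPM in HD-homo, and Atp6v0e2, a proton pump subunit, fell from 24.3 ± 1.11 to 2.06 ± 0.841 CPM. For comparison, the list of interferon and chemokine genes that is left aside here held 118 higher and 12 lower of 151 tested.

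The genes that differed were not spread evenly over the chromosomes. Positions were found for 13206 tested genes (97.8%). On chromosome 2, 48.3% of tested genes were higher and 16.8% lower in HD-homo, with a median log2 fold change of 0.215, and on chromosome 13, 46.2% were higher and 14.3% lower, with a median of 0.204. Chromosome 17 was the reverse, with 15.9% higher, 45.8% lower and a median of -0.215, followed by chromosome 12 with 14.3% higher, 44.2% lower and a median of -0.189 and chromosome 7 with 17.2% higher, 41.7% lower and a median of -0.178. Of 19 autosomes, 5 had a median above 0.1 and 6 a median below -0.1.

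The library medians showed the same pattern. For 9 autosomes every HD-homo library median was above every control one, for 8 every HD-homo median was below, and for 2 they overlapped, while the control libraries lay between -0.03 and 0.02 around their own mean on all autosomes. Within chromosomes the shift was uneven. Among runs of 51 neighbouring tested genes, the highest median was 0.612 at chr2:58821697-71903858, where 37 were higher and 7 lower. Scn3a lies in this run, and so do Dlx1, Dlx2 and Pdk1, with log2 fold changes of 0.63, 0.98 and 3.29. The lowest run median was -0.498 at chr7:51997161-75874133, with 4 higher and 34 lower. Ndn, at -2.67, and Fan1, at -0.10, lie in that run. Next came -0.431 at chr12:69182734-76319820, with 5 higher and 33 lower. On chromosome 13 the highest run, chr13:58380046-67451624, had a median of 0.379 with 27 higher and 1 lower. DNA copy number was not measured, and its part in these shifts was not tested.

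**Figure D4:**
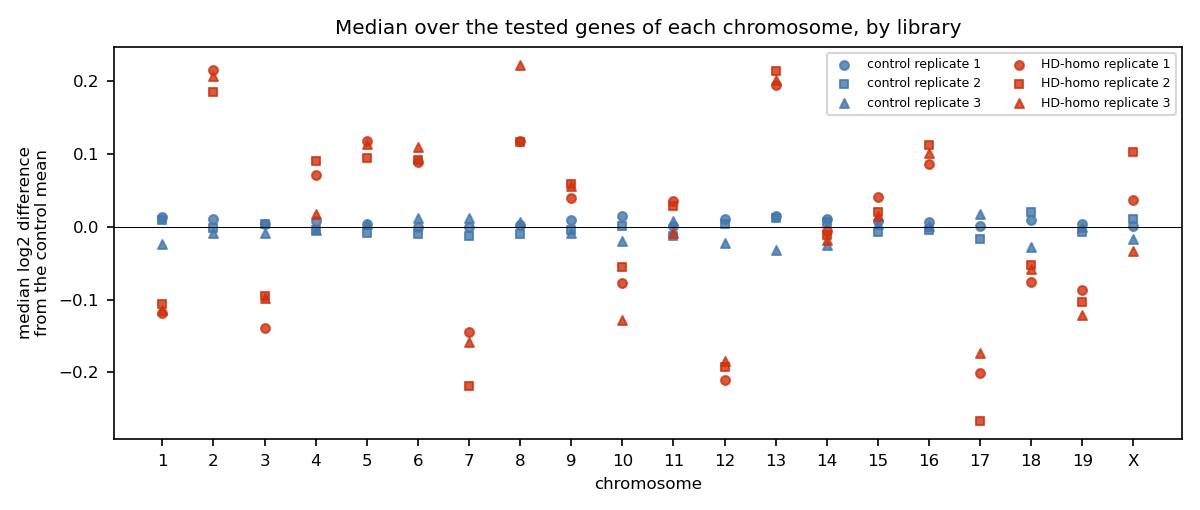
Median log2 difference from the control mean over the tested genes of each chromosome (x axis, autosomes 1 to 19 and X), for each of the 3 control (blue) and 3 HD-homo (red) libraries, computed on log2(CPM + 0.1). The control libraries stay between -0.03 and 0.02 on the autosomes, and the HD-homo libraries stand together above them on chromosomes 2, 8 and 13 and below them on chromosomes 7, 12 and 17.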

How the data were processed

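RNA of 3 striatal lines (3 libraries each) was enriched for poly(A) and made into strand-specific libraries. The authors deposited a table of whole-number counts per gene symbol. The submitters' processing notes name cutadapt, Bowtie 1.1.2, RSEM 1.3.0, DESeq2, GRCm38.p5 and mm10, without saying which tool gave these counts or whether estimates were rounded. Reads of paralogs, overlapping or antisense genes may be split. 2 rows repeated a symbol and were kept apart.

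Groups came from the labels. Counts were fitted for all 9 libraries with edgeR 4.0.16 (R 4.3.3) after filterByExpr (minimum count 10) and TMM scaling, by its quasi-likelihood test of HD-homo against control, and p-values were adjusted over all 13508 tested genes by Benjamini-Hochberg. Every adjusted p is from this test. Folds are ratios of mean normalized CPM, and against a line with no count they are lower bounds. Against a line with counts but at most 3 in every library, ratios of summed counts per effective library size are given with exact (Clopper-Pearson) 95% intervals. Log2 fold changes come from the fit. A simulation was drawn from the control means, with 200 genes changed, of which 194 were among the 12745 tested. In it 88.1% of changed genes were recovered at a log2 change of 1 and 97.3% at 2, with 6.7% false calls. In the data 58.6% of tested genes were called, a far larger share than was changed in the simulation, so these rates need not hold for the data.

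The members and gene lists were chosen with earlier results of these data known. By rule, the text names Htt, the 12 largest increases and decreases, the 5 largest rises and falls in CPM, the 6 highest and lowest developmental transcription factors and the 2 highest and lowest called members of each other list (all members of short lists), leaving out interferon and chemokine genes; 96 others were named for their known role after their values were seen. Positions are from RefSeq on GRCm38.p6. Alternatives were DESeq2 1.42.0, other scalings, filters and thresholds, a replicate block and leaving out each library. Some genes that the rule names are not reported here.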

Additional observations from a re-analysis of the deposited data

How the results depend on the processing

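The number of genes called was 7910 (4002 higher and 3908 lower in HD-homo). Asking also for a log2 fold change of at least 1 left 2574, of which 1367 were higher and 1207 lower. Leaving out single libraries gave 6842 to 7670 in all, 3475 to 3870 higher and 3367 to 3800 lower. Replicate numbers were not taken as a pairing, since same-numbered libraries of the lines deviated together only weakly, with correlations of 0.0332, 0.0219 and 0.00893. Each control library nonetheless correlated best with the HD-homo library of its own number. With the replicate block 8372 genes were called. No called gene changed sign under any alternative. Of 298 named genes tested, 271 stayed on the same side of the threshold in every alternative and 27 did not. The medians of 12 of 47 lists changed sign under at least 1 alternative; apart from cadherins, these medians were at most 0.08 in size. Of 21 chromosomes, 1 did so, chromosome 14, with a median of 0.006. The number of lower members went from 1 to 2 for endothelial markers without HD-homo replicate 3 or control replicate 1, for fibroblast markers without HD-homo replicate 1, and for microglial and striatal markers without control replicate 3. Depth limits mainly genes near 3 counts, whose folds are bounds or have wide counting intervals.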

Other observations

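The heterozygous line was not part of the comparison, and its mean levels are given here for the largest changes only. Of the 12 genes with the largest increases in HD-homo, 7 had a mean under 1 CPM in HD-het, among them Scn3a, Thbd, Selp and Slc43a3, and of the 12 with the largest decreases 2 did, Gpr149 and Ptprb. HD-het thus held most of the transcripts that HD-homo had lost, such as Sall1 at 43.0 CPM, Lhx1 at 55.3 CPM and Tenm3 at 139 CPM. Htt was at 62.3 CPM. Col1a2 was at 3.15 CPM in HD-het, under both other lines, and Acta2 was at 5290 CPM, over both. These values are from 3 libraries of a single line and were not tested.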
